A study of Mus musculus with 66 samples.

Results

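Astrocyte and radial glia markers are 10 genes that mark the glial cells accompanying neurons in a culture of embryonic mouse brain: Gfap, Aqp4, Gja1, Slc1a2, Slc1a3, Aldh1l1, Aldoc, S100b, Fabp7 and Sox9. They were taken by gene symbol from a table of counts that holds 30084 symbols, and all 10 were found and passed the filter on low counts that left 16145 genes for testing. The study depleted 9 genes, most of them chromatin regulators, from cultured neurons with lentiviral short hairpin RNAs, and asked how each depletion changed transcription in each sex. It comprises 66 RNA libraries, 3 for each of 22 groups, and here the markers are described in every group and by the replicate number that the labels give to each library.

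All cultures came from wildtype mouse embryos of stage E16.5, separated into males and females, and were grown in neurobasal medium with B27 on poly-D-lysine. In each sex there were 9 groups infected with virus carrying a hairpin against the chromatin regulators Chd8, Ash1l, Setd5, Kmt2c, Kdm6b, Dnmt3a or Mbd5, the Mediator subunit Med13l or the transcription factor Tbr1. A further group received a nontargeting hairpin and another received no virus. The cells were freed of virus on day 6 in culture and harvested on day 10, with viral doses meant to leave the target at about 50% of its level. The treatment was applied to triplicates of wells, and nothing in the labels says that the 3 libraries of a group came from separate cultures. The p-values therefore measure only the spread between these libraries, which may be technical.

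Astrocytes and radial glia belong to one lineage: radial glia are the stem cells of the embryonic cortex, which give rise first to neurons and later to astrocytes. Astrocytes clear glutamate from the synapse, buffer water and potassium, couple to each other through gap junctions and supply neurons with metabolites. In a neuronal culture taken from the embryo such cells are a minority, and their number depends on how many progenitors were plated and how far they divided and matured. In RNA from a whole well, fewer cells of a type and less RNA per cell cannot be told apart, and this holds for every value below.

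Gfap and Fabp7 are shown by sequence because Gfap had the widest range of the 10 markers over the libraries, moving with the depletions of Chd8 and Dnmt3a, and Fabp7 had the largest difference between replicate numbers. Gfap encodes the intermediate filament of mature and reactive astrocytes, and its promoter is a textbook example of a gene kept methylated in early neural progenitors. Fabp7 encodes brain lipid binding protein, a fatty acid carrier of radial glia and immature astrocytes. The 250 bases that precede each RefSeq start (build GRCm38.p6) are given 5′ to 3′ on the gene's own strand, with each CG dinucleotide, the site of DNA methylation, in capitals. The Gfap window is chr11:102897201-102897450 on the minus strand and the Fabp7 window is chr10:57784673-57784922 on the plus strand.
Gfap: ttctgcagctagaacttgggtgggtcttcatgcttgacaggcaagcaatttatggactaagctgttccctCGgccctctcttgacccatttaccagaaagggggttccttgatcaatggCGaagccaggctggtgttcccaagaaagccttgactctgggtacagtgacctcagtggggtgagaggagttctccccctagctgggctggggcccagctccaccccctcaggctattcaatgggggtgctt
Fabp7: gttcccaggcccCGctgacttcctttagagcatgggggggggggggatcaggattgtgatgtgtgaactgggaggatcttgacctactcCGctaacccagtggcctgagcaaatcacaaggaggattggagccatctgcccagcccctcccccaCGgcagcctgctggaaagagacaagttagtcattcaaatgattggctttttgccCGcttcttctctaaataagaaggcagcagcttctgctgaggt
The Gfap window holds 2 CG dinucleotides and the Fabp7 window 4, against a median of 6 over 32851 mouse windows of the same length. Of the letters searched on both strands, TTGGC, which nuclear factor I proteins bind, occurs in the Fabp7 window and in 41.5% of all windows, and it does not occur in the Gfap window. TTCNNNGAA, the letters bound by STAT proteins, occurs in neither and in 7.02% of all windows. Such matches describe letters only, and no binding or methylation was measured in these libraries. Bases further upstream were not searched, so the CG dinucleotides and the missing letters describe these windows and not the whole promoters. Windows were found for 8 of the 10 markers. In the GENCODE M21 annotation of mm10 Gfap spans chr11:102887336-102900912, so that its window lies inside the span of longer transcripts. Fabp7 spans chr10:57784881-57788450, Slc1a2 chr2:102658659-102790784 on the plus strand and Gja1 chr10:56377330-56402513 on the plus strand.

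The libraries held between 13634872 and 66074822 counts assigned to a symbol. Levels are given as CPM, counts scaled to library size and corrected by edgeR's TMM factors. The hairpins left their own target at a median of 32.8% of the mean nontargeting level over 54 libraries, with a range of 13.4% to 101%. The library labelled Setd5 male replicate 1 had Setd5 at 101% and Kdm6b at 38.5% of the nontargeting mean, whereas the library labelled Kdm6b male replicate 1 had Setd5 at 32.3% and Kdm6b at 66.7%, so both go against their labels. The library labelled Setd5 female replicate 1 held 34.8 CPM of 4 Y-linked genes together, where the other 32 female libraries held at most 0.508 CPM and the 33 male libraries 153 to 262 CPM. Counts of called markers and some single results are also given without these 3 libraries. The fits with the replicate number as a block, the levels by number and the correlations include them and were not repeated without them.

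The libraries were neuronal in their markers, with the glial markers present in all of them. Only lengths make levels of different genes comparable, so the following are CPM per kilobase of exon in the 6 nontargeting libraries. Fabp7 stood at 146 ± 86.9 (SD, n = 6), at the 99.1 percentile of symbols with reads, between the neuronal Map2 at 104 ± 12.3 and the neuronal tubulin Tubb3 at 734 ± 90.7. Other neuronal genes were lower than Fabp7: Snap25 at 106 ± 12.9, Gad1 at 99.2 ± 15.3, Slc17a7 at 28.6 ± 3.45 and Rbfox3 at 12.9 ± 1.43. Rbfox3 thus lay below the means of 3 glial markers, Fabp7, Slc1a2 and Aldoc. Slc1a2, the astrocytic glutamate transporter GLT-1, which some neurons also express, stood at 19.9 ± 4.32. Aldoc, an aldolase of glycolysis that astrocytes prefer, stood at 14.7 ± 3.09. Slc1a3, the glutamate transporter GLAST of radial glia and astrocytes, stood at 6.85 ± 1.78, and Aldh1l1, a folate enzyme used as a pan-astrocyte marker, at 3.64 ± 0.813. The remaining 5 lay below 2 CPM per kilobase: Gfap at 1.93 ± 0.732, the water channel gene Aqp4 at 1.84 ± 0.696, the glial transcription factor gene Sox9 at 1.5 ± 0.43, the connexin-43 gene Gja1 at 0.911 ± 0.198 and the calcium-binding S100b at 0.677 ± 0.265. In that order the ranges over the 6 libraries did not overlap between Fabp7 (68.2 to 306) and Slc1a2 (14.8 to 27.9), or between Aldoc (10.2 to 17.6) and Slc1a3 (3.83 to 8.56). They overlapped between every other pair of neighbours, from Slc1a2 and Aldoc to Gja1 and S100b.

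Of the oligodendrocyte markers, Sox10 was at 0 in 52 of the 66 libraries and Pdgfra in 1, while Mbp ran from 12.5 to 37.8 CPM. The endothelial Cldn5 and Cdh5 were at 0 in 34 and 53 libraries, and Pecam1 in none, at 0.194 to 1.64 CPM. The microglial Cx3cr1 was at 0 in 32 and Csf1r in 1, and Aif1 ran from 0.233 to 2.33 CPM. Of progenitor and radial glia genes, Vim ran from 30.5 to 89.8 CPM, Nes from 11.1 to 45.8, Pax6 from 1.39 to 8.74 and Hes5 from 0.261 to 3.39. The mesenchymal Dcn, between 3.62 and 50.4 CPM, was present throughout.

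Most of the glial markers varied with the replicate number of the libraries, in an order that was not the same for all of them. Each number comprises 11 libraries per sex, 1 of each condition, so a difference between numbers is not a difference between treatments. Libraries of 1 number may share a culture, and the F test used here, edgeR's quasi-likelihood test with the group as a second term, compares these sets of libraries and not cultures in general. In females all 10 markers varied with the number, against 72.6% of all genes tested, so most genes did so too. In males 6 of 10 varied, against 28.7% of all genes.

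Fabp7 had the largest fitted difference between female numbers 1 and 2 of the 10 markers. The 11 libraries of number 1 ran from 168 to 851 CPM with a median of 427, those of number 2 from 38.2 to 108 with a median of 85.3, and those of number 3 from 126 to 364 with a median of 226. Number 2 overlapped with neither of the others, and in each of the 11 conditions number 1 was the highest library and number 2 the lowest. Of all genes, 5.9% were lower without overlap in number 2 than in number 1, and 2.69% were higher in number 3 than in number 2. The fitted level in number 2 was 0.170-fold that in number 1 (log2 difference -2.56 ± 0.18 SE), and the adjusted p of the edgeR quasi-likelihood test was 1.75e-15. In males the same gene showed medians of 136, 147 and 141 CPM for the 3 numbers, and its adjusted p was 0.582.

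Gfap and Aqp4 followed the same order in females. Gfap had medians of 12.7, 4.30 and 8.30 CPM for numbers 1, 2 and 3, and number 2 was the lowest library in 11 of 11 conditions (log2 difference to number 1 -2.04 ± 0.27). Aqp4 had medians of 17.1, 5.82 and 8.60 CPM, and number 1 was the highest and number 2 the lowest in 11 of 11 conditions (-1.61 ± 0.18). S100b, Gja1, Aldoc, Aldh1l1 and Slc1a3 were also lower in number 2 than in number 1, with log2 differences of -1.52, -1.08, -1.06, -0.73 and -0.46. In number 3 these 5 differed from number 1 by -0.40, -0.80, -0.40, -0.52 and -0.60, so that Slc1a3 was lowest there, in 7 of 11 conditions. The adjusted p of these 7 genes in females, from the same edgeR test, ran from 1.78e-10 for Aqp4 to 0.000142 for Slc1a3.

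Sox9 and Slc1a2 went the other way. Sox9, which acts early in the glial programme, had medians of 4.80, 9.23 and 3.80 CPM for female numbers 1, 2 and 3. The 11 libraries of number 2, between 7.02 and 12.4 CPM, lay above all 22 others, and of all genes 5.23% were likewise higher without overlap in number 2 than in number 1 and 1.46% lower in number 3 than in number 2. Slc1a2 had medians of 186, 277 and 214 CPM, and number 2 was the highest library in 10 of 11 conditions. Their log2 differences of number 2 from number 1 were 0.93 ± 0.13 and 0.66 ± 0.08, with adjusted p of 2.06e-12 and 1.33e-09 by the edgeR test.

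In males number 3 was the highest for the 6 markers that varied. Slc1a3 ran from 24.6 to 61.7 CPM in number 1, from 31.5 to 71.8 in number 2 and from 66.6 to 163 in number 3, which was the highest library in 11 of 11 conditions. It lay 2.44-fold above number 1 in the fit (log2 difference 1.28 ± 0.13, adjusted p by edgeR 2.52e-10), without overlap, as did 0.13% of all genes. Aldh1l1 also had number 3 highest in 11 of 11 conditions, with medians of 14.2, 14.0 and 34.2 CPM and a log2 difference to number 1 of 1.17 ± 0.14. It did not overlap between numbers 2 and 3, nor did 0.254% of all genes that were higher in number 3. Gja1, Aldoc, Aqp4 and Sox9 were higher in number 3 by 1.04, 0.97, 0.76 and 0.44. In the edgeR test Gfap, Slc1a2, S100b and Fabp7 did not pass in males, with adjusted p of 0.0590, 0.0835, 0.645 and 0.582. Without the 3 libraries that go against a label, Slc1a2 passed as well and 7 of 10 varied in males, with 10 of 10 in females as before. Ash1l male replicate 3 held the highest Slc1a3 of the 66 libraries at 163 CPM, with Aldh1l1 at 51.2, Gfap at 26.0, Gja1 at 22.2 and Aqp4 at 21.5 CPM.

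**Figure D1:**
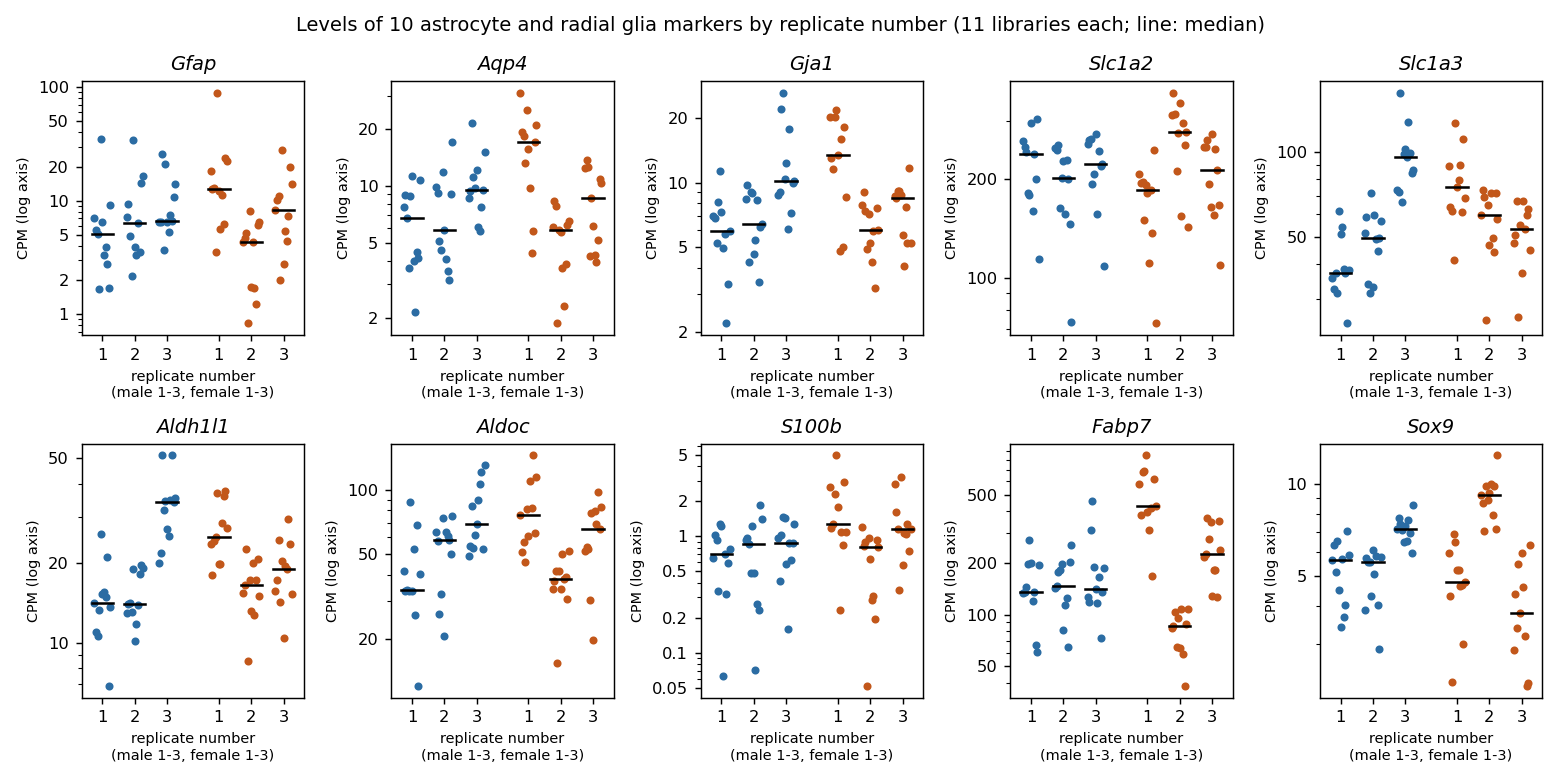
Levels of the 10 markers in CPM on a log axis, 1 point per library, by replicate number in males (blue) and females (orange), with the median of 11 libraries as a line. Female number 2 is lowest for Fabp7, with a median of 85.3 CPM against 427 in number 1, and highest for Sox9, and male number 3 is highest for Slc1a3 and Aldh1l1.

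The other glial lists, compiled with earlier results of these data known, were counted in the same way, against 28.7% of all genes in males and 72.6% in females. Of 29 further astrocyte genes tested, 22 varied with the number in males and 24 in females. Of 20 further radial glia genes, 15 and 18 did. Of 17 genes of reactive astrocytes, 5 and 10 did, and of 12 neuronal genes, 4 and 9. Of 10 genes of dividing cells, 0 varied in males, with 0 at an unadjusted p under 0.05 in the edgeR test, and 6 in females. The summed level of the proliferation list had medians of 89.0, 52.0 and 72.8 CPM in female numbers 1, 2 and 3. That is the same order as Fabp7, but such a sum mostly follows its most abundant genes. The summed neuronal list differed less, at 8194, 8714 and 7827 CPM. Their part in the marker levels was not tested.

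Across the 66 libraries 8 of the 10 markers rose and fell with each other, and Slc1a2 and Sox9 did not. Pearson's r of each of the 8 with the mean of the other 9 was between 0.50 for Aldoc and 0.76 for Slc1a3, and it was -0.24 for Slc1a2 and -0.25 for Sox9. The sexes differed in this. In males alone r of Sox9 with the 8 ran from -0.06 (S100b) to 0.43 (Gja1), and in females from -0.58 (Fabp7) to -0.19 (Slc1a3). Within the 8 the lowest male r was 0.03, between S100b and Aldoc. These correlations are descriptions over 66 libraries that share replicate numbers, conditions and library preparation. After each group's mean was subtracted, Aldh1l1 and Slc1a3 had r = 0.92 and Gfap and Fabp7 had r = 0.89. Slc1a2 then had r = 0.61 with Sox9 and -0.74 with Fabp7.

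**Figure D2:**
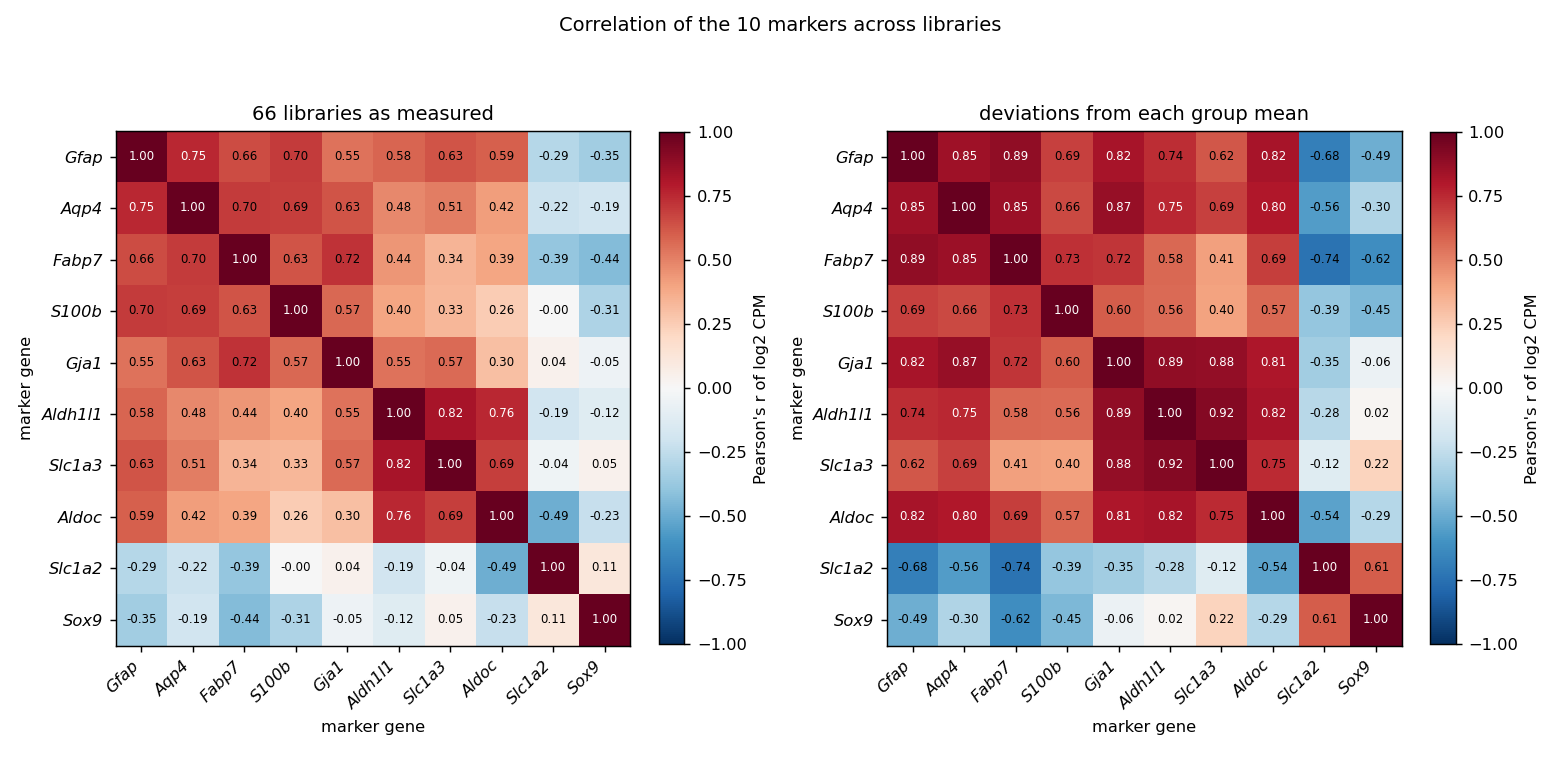
Pearson's r between the log2 CPM of each pair of markers over 66 libraries, as measured (left) and after subtracting each group's mean (right), with red for positive and blue for negative values. The block of 8 markers is red in both panels, and Slc1a2 and Sox9 stand outside it, with r = -0.74 between Slc1a2 and Fabp7 on the right.

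Among the 10 genes outside the markers whose level most resembled the mean of the standardised markers over the 66 libraries were Mlc1 (r = 0.904), Apoe (0.860), Gstm1 (0.859), Hepacam (0.847), Zcchc24 (0.820), Serpine2 (0.811), Tmem150c (0.805), Pbxip1 (0.802) and Gm6145 (0.795). Mlc1 and Hepacam encode partner membrane proteins of astrocytes, and Apoe the main lipid carrier of the brain. The genes most opposed were Ccn1 (-0.805), Ppip5k1 (-0.777), Npas4 (-0.764), Chac1 (-0.764) and Dusp5 (-0.755). Npas4 is a transcription factor gene induced by neuronal activity, and Dusp5 encodes a phosphatase induced by growth signals. Npas4 stood at 14.8, 84.9 and 27.6 CPM in the 3 female nontargeting libraries, where Apoe stood at 140, 57.6 and 97.0 CPM.

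Each hairpin was compared with the nontargeting hairpin, first within each sex and then as the mean of the male and the female change. The 9 comparisons share the 6 nontargeting libraries. As the mean of both sexes, 7 of the 90 marker changes passed an adjusted p of 0.05 in edgeR's quasi-likelihood test: 6 were lower and 1 was higher. They concerned Slc1a2 with Tbr1, Kmt2c and Chd8, Gfap with Chd8 and Dnmt3a, and Aqp4 and Gja1 with Med13l. In the single sexes only Slc1a2 with Tbr1 passed. Over all genes the share called as the mean of both sexes was 22.3% with Chd8, 24.1% with Med13l, 1.4% with Dnmt3a, 1.33% with Tbr1, 0.694% with Kmt2c and 0.663% with Mbd5. In males it was 9.82% with Chd8, 8.06% with Med13l, 1.98% with Ash1l, 0.217% with Tbr1, 0.111% with Dnmt3a, 0.0867% with Kmt2c and also with Kdm6b, 0.0619% with Mbd5 and 0.0557% with Setd5. In females it was 9.33% with Chd8, 10.2% with Med13l, 1.1% with Ash1l, 3.12% with Setd5, 0.0619% with Tbr1, 0.118% with Dnmt3a, 0.0991% with Kmt2c, 0.0557% with Mbd5 and 0% with Kdm6b. The 7 remained 7 without the 3 libraries that go against a label, and no sign changed in any alternative tried.

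**Figure D3:**
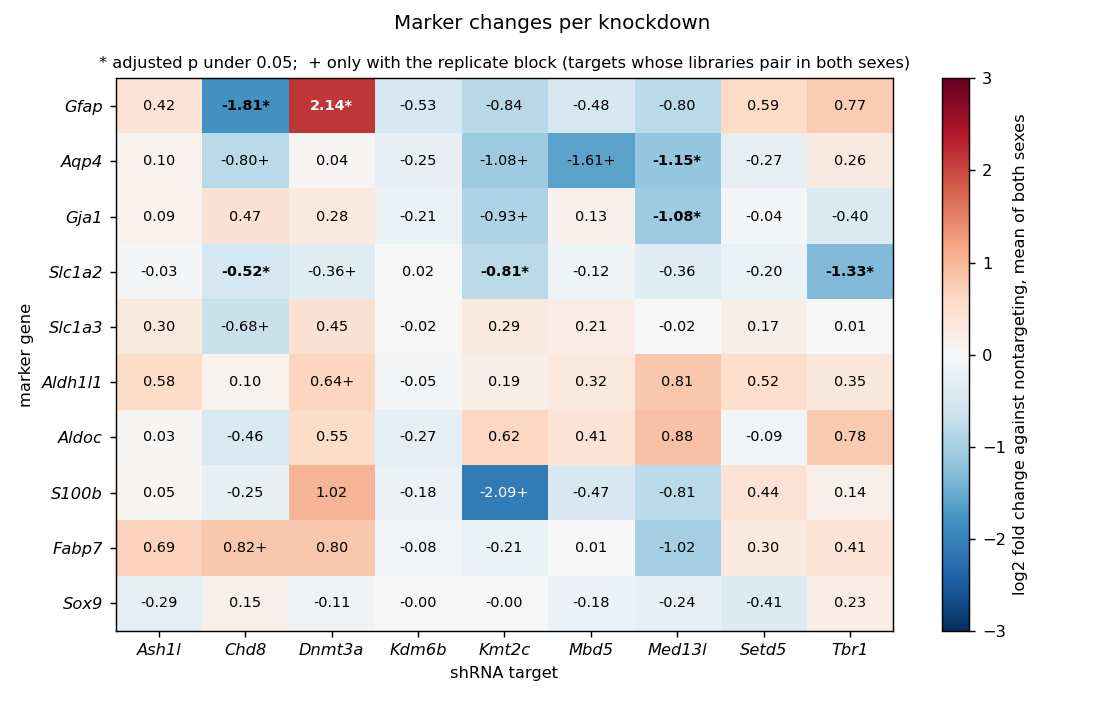
Log2 fold change against the nontargeting hairpin, as the mean of both sexes, for 10 markers (rows) and 9 targets (columns), with red for higher and blue for lower. A star marks an adjusted p under 0.05 and a plus a call by edgeR with the replicate number as a block that the same test without the block did not make, shown for targets whose libraries pair in both sexes. The 7 stars include -1.33 for Slc1a2 with Tbr1 and 2.14 for Gfap with Dnmt3a.

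Tbr1 is a transcription factor of deep-layer cortical neurons, and its depletion gave the lowest Slc1a2 levels of the series. The nontargeting libraries held 250, 245 and 263 CPM in males and 194, 367 and 250 in females. The Tbr1 libraries held 114, 73.6 and 109 CPM in males and 72.9, 143 and 110 in females. All 6 lay below all 6 controls, and 1.98% of genes were lower without overlap in both sexes. Slc1a2 fell to 0.391-fold in males (log2 change -1.35 ± 0.25 SE, adjusted p by edgeR 0.00296), where 0.204% of genes passed in that direction, and to 0.402-fold in females (-1.32 ± 0.25, adjusted p by edgeR 0.00991), where 0.0557% did. The mean change was -1.33 ± 0.17 with an adjusted p by edgeR of 1.76e-06, and 1.08% of genes were called lower. The male call was lost without Tbr1 male replicate 2 (adjusted p 0.184). The female call was lost without nontargeting female replicate 2 (0.220), Tbr1 female replicate 1 (0.389) or Tbr1 female replicate 3 (0.165), and also with each sex fitted separately (0.305) or with only the 6 libraries compared (0.9998). The mean was called without any 1 library.

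No other marker was called with Tbr1. Slc1a3, the second glutamate transporter, had a mean log2 change of 0.01 ± 0.34, Gfap 0.77 ± 0.50 and Aldoc 0.78 ± 0.36. Of the 10 markers 8 had a mean change above 0, with a median of 0.25 against -0.00147 over all genes. The summed neuronal list ran from 7563 to 7978 CPM in the male Tbr1 libraries against 8232 to 8585 in the male controls, and from 7147 to 8345 against 7980 to 9000 in females. Its part in the change of Slc1a2 was not tested.

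Kmt2c is a histone H3 lysine 4 methyltransferase. With its depletion Slc1a2 stood at 160, 157 and 156 CPM in males and 111, 155 and 156 in females, again below all controls of the same sex, as were 1.59% of genes in both sexes. The mean log2 change was -0.81 ± 0.17, or 0.570-fold, with an adjusted p by edgeR of 0.00738, and 0.595% of genes were called lower. The call was lost without nontargeting female replicate 2 (adjusted p 0.0703) or Kmt2c female replicate 1 (0.0576).

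With the replicate number as a block in the fit over all 66 libraries, more markers passed with Kmt2c. The numbers pair these libraries in both sexes by the check given with the processing. With the number as a block Slc1a2 was called in males (-0.68 ± 0.15, adjusted p by edgeR 0.0160, where 0.396% of genes were called lower) and in females (-0.91 ± 0.15, adjusted p by edgeR 0.000181, where 0.941% were). The block also called Aqp4 (mean change -1.14 ± 0.24, adjusted p by edgeR 0.00196), Gja1 (-0.93 ± 0.23, 0.0151) and S100b (-2.15 ± 0.48, 0.00430, also called without the block by DESeq2 at 0.0154) lower, so that 4 of 10 markers passed as the mean of both sexes where 2.02% of genes were called lower. S100b rests on few counts: the male Kmt2c libraries held 2, 2 and 6 counts and the male controls 30, 40 and 15, with 6, 8 and 20 against 30, 44 and 48 in females. Gja1 stood at 4.94, 5.37 and 6.08 CPM in males and 4.78, 4.26 and 4.07 in females, against 6.83, 9.74 and 9.01 and 13.0, 9.05 and 8.49. It overlapped with the controls in neither sex, as for 1.59% of genes lower in both. Aldoc and Slc1a3 were not called.

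Chd8 is a chromatin remodeller. Slc1a2 stood at 182, 164 and 193 CPM in males, below all male controls as were 20.5% of genes, and at 150, 212 and 193 in females, which overlapped with theirs. The mean log2 change was -0.52 ± 0.17 (0.698-fold, adjusted p by edgeR 0.0224). In this comparison 12.5% of all genes were called lower. The call was lost without nontargeting female replicate 2 (adjusted p 0.135), Chd8 female replicate 1 (0.0891) or Chd8 male replicate 2 (0.0536). With the replicate block it was called in males (adjusted p by edgeR 0.0118, with 12.5% of genes called lower) and in females (0.00975, with 12.1%).

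Gfap was the other marker called with Chd8. Nontargeting libraries held 5.50, 9.37 and 6.48 CPM in males and 12.7, 4.69 and 10.1 in females. Chd8 libraries held 1.65, 2.18 and 3.68 CPM in males and 3.53, 0.828 and 1.98 in females, below the controls of their sex without overlap, as were 8.73% of genes in both sexes. Gfap was 0.285-fold in the mean of both sexes (log2 change -1.81 ± 0.53, adjusted p by edgeR 0.00960), and it was called without any 1 library, with the adjusted p between 0.00760 and 0.0321.

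With the replicate block Chd8 gave 5 calls among the 10 markers as the mean of both sexes, where 19.4% of all genes were called lower and 17.5% higher. Gfap (-1.90 ± 0.36), Aqp4 (-0.99 ± 0.23), Slc1a3 (-0.72 ± 0.18) and Slc1a2 (-0.50 ± 0.11) were lower, and Fabp7 was higher (0.65 ± 0.23, adjusted p by edgeR 0.0219). Fabp7 stood at 198, 182 and 461 CPM in the male Chd8 libraries, above the male controls at 136, 147 and 119, as were 18.4% of genes. In females it stood at 687, 64.3 and 277 against 383, 85.3 and 226, and the groups overlapped. Without the block the mean change of Fabp7 was not called (log2 change 0.82, adjusted p by edgeR 0.290). That change fell to as little as 0.317 with 1 library left out. With each sex fitted separately and no block, Fabp7 was called higher in males (1.07, adjusted p by edgeR 0.0370) and Slc1a2 lower (-0.49, 0.0272). As the mean of both sexes Fabp7 was called only with the block, and the median over the 10 without the block was -0.36.

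Other cell markers were also counted with Chd8, where 22.3% of all genes were called in either direction and 12.5% lower. Named after their values were seen, of 12 neuronal genes 2 were called higher (Tubb3 and Stmn2) and 5 lower (Map2, Gad2, Slc17a6, Slc17a7 and Syt1). Dcn and Lum, 2 of 8 mesenchymal genes, were called lower, and the summed mesenchymal list ran from 17.3 to 21.2 CPM against 28.7 to 47.1 in males and from 18.9 to 30.5 against 30.6 to 59.9 in females. Their part in the marker changes was not tested.

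Dnmt3a is a DNA methyltransferase, and its depletion gave the highest Gfap levels of the series. The Dnmt3a libraries held 35.1, 34.1 and 21.0 CPM in males, each above the male controls as for 8.85% of genes, and 89.7, 8.18 and 27.7 in females, where the groups overlapped but each library was above the control of its own number. Gfap was 4.40-fold in the mean of both sexes (log2 change 2.14 ± 0.52, adjusted p by edgeR 0.0170), where 0.477% of genes were called higher. The changes in the single sexes, 2.08 in males and 2.2 in females, were not called (adjusted p by edgeR 0.55 and 0.46). With only the 6 libraries compared, the male change was called (2.08, adjusted p by edgeR 0.00368). The mean call was lost without Dnmt3a female replicate 1 (log2 change 1.52, adjusted p 0.254), nontargeting female replicate 2 (0.0800), nontargeting male replicate 1 (0.0636) or nontargeting male replicate 3 (0.0603).

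With the replicate block Gfap was called with Dnmt3a in each sex, at 2.16 ± 0.47 in males (adjusted p by edgeR 0.00770, with 0.44% of genes called higher) and 1.81 ± 0.47 in females (0.0358, with 0.279%). The block also called Aldh1l1 higher (0.61 ± 0.19, adjusted p by edgeR 0.0339) and Slc1a2 lower (-0.35 ± 0.11, 0.0332) as means of both sexes, so that 3 of 10 passed where 6.97% of genes were called. Fabp7, S100b, Aldoc and Slc1a3 had mean changes of 0.80, 1.02, 0.55 and 0.45 without the block and were not called. Aqp4 had a mean change of 0.04 ± 0.41.

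Med13l is a subunit of the kinase module of the Mediator complex. Aqp4 stood at 4.45, 3.18 and 7.74 CPM in male Med13l libraries against 8.90, 9.15 and 9.34 in the controls, and at 5.77, 3.85 and 5.19 against 19.4, 8.34 and 13.7 in females. The groups did not overlap in either sex, as for 7.02% of genes lower in both. Gja1 stood at 2.19, 3.41 and 7.24 CPM in males and 5.01, 3.19 and 5.23 in females, below the controls in females, as were 10.3% of genes, and overlapping with them in males. The mean log2 changes were -1.15 ± 0.42 for Aqp4 (adjusted p by edgeR 0.0372) and -1.08 ± 0.38 for Gja1 (0.0331), in a comparison in which 12.3% of genes were called lower. Both calls lie near the threshold: of 12 libraries left out in turn, only Med13l male replicate 3 or nontargeting female replicate 2 left Aqp4 called, and the other 10 gave adjusted p of up to 0.0990. Gja1 lost its call in 8 of 12, with adjusted p of up to 0.104 without Med13l male replicate 1.

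In females, where the numbers pair the Med13l libraries with the controls, the block called Aqp4 (-1.40 ± 0.33, adjusted p by edgeR 0.00133), Gja1 (-1.16 ± 0.33, 0.00598), Fabp7 (-1.05 ± 0.32, 0.0132) and Slc1a2 (-0.41 ± 0.15, 0.0326) lower, 4 of 10 where 13.9% of genes were called lower. Aldh1l1 and Aldoc had mean changes of 0.81 ± 0.35 and 0.88 ± 0.36 in both sexes together, with adjusted p by edgeR of 0.0876 and 0.0729. Fabp7 stood at 66.8, 64.5 and 73.3 CPM in male Med13l libraries, below the controls at 136, 147 and 119 without overlap, as were 21.6% of genes. Among markers of other cells, the summed neuronal list was lower, at 6846 to 7583 CPM against 8232 to 8585 in males and 7036 to 7854 against 7980 to 9000 in females. The summed proliferation list was 88.4 to 98.0 CPM against 57.7 to 68.7 in males, and 67.7 to 134 against 47.5 to 90.7 in females. The sum did not follow all of its genes, in a comparison in which 24.1% of all genes were called. Of its 10 genes 2 were called higher (Mcm2 and Pcna) and 4 lower (Top2a, Cdk1, Mki67 and Ccnb1), named after their values were seen. Their part in the marker changes was not tested.

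**Figure D4:**
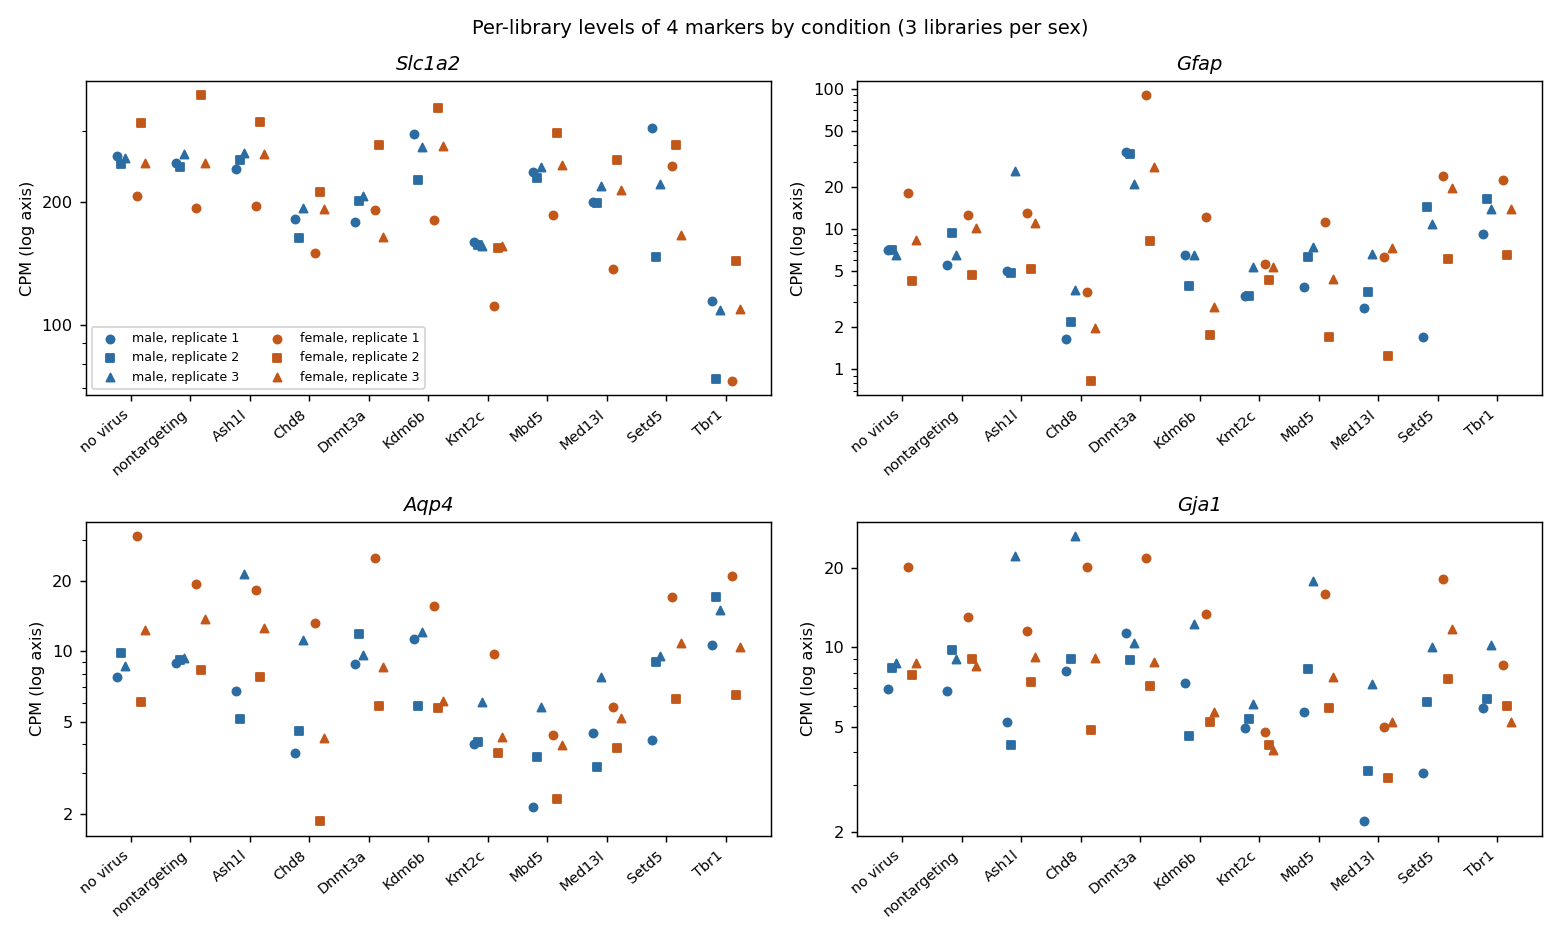
CPM on a log axis for Slc1a2, Gfap, Aqp4 and Gja1 in each of the 11 conditions, 1 point per library, with colour for sex and symbol for replicate number. All 6 Tbr1 libraries lie below all 6 nontargeting libraries for Slc1a2 (72.9 to 143 against 194 to 367 CPM), and the Dnmt3a libraries reach 89.7 CPM for Gfap.

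Mbd5 is a protein of the methyl-CpG-binding domain family. Aqp4 stood at 2.15, 3.53 and 5.74 CPM in male Mbd5 libraries and at 4.40, 2.31 and 3.95 in females, and overlapped with the controls in neither sex, as for 1.29% of genes lower in both. The mean log2 change of -1.61 ± 0.42 did not pass without the block (adjusted p by edgeR 0.0605), but it was called by DESeq2 (-1.60, 0.0203) and by edgeR with no virus as control (0.0314). With the replicate block Aqp4 was called by edgeR in males (-1.35 ± 0.34, 0.0297, where 0.805% of genes were called lower) and in females (-1.91 ± 0.34, 0.00108, where 0.409% were), and as a mean (-1.63 ± 0.24, 1.07e-05, where 2.37% were). No other marker was called with Mbd5 in any of these fits.

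Ash1l, Kdm6b and Setd5 gave no call among the 10 markers by edgeR or DESeq2, in males, in females or as the mean of both sexes, and none reached an unadjusted p of 0.05 without the block. Over all genes, 6.16%, 0.966% and 5.3% were called as the mean of both sexes. Without the 3 libraries that go against a label, 0 of 10 were called in any comparison of Kdm6b or Setd5, and the smallest adjusted p of a mean change was 0.786 and 0.356. Kdm6b female replicate 3, which was kept, still held Kdm6b at 78.8% of the female nontargeting mean, so its depletion was slight. The labelled Setd5 male replicate 1 held the lowest Slc1a3 (24.6 CPM), Aldh1l1 (6.85 CPM) and Aldoc (12.1 CPM) of the series. With Ash1l, Fabp7 had a mean change of 0.69 and Aldh1l1 of 0.58, and with Setd5 Gfap had 0.59.

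In Chd8-depleted cultures 3 further astrocyte genes were called lower as the mean of both sexes: Clu (log2 change -1.09 ± 0.17, adjusted p by edgeR 2.54e-06), the secreted chaperone clusterin, Atp1b2 (-0.62 ± 0.13), an adhesive subunit of the sodium pump, and Ndrg2 (-0.69 ± 0.18). Plpp3, named after its values were seen, was called higher, so that 1 rose and 3 fell of 29 tested, where 22.3% of all genes were called in either direction, a larger share. Ttyh1 was the 1 radial glia gene of 20 called, lower by -0.26 ± 0.09 (adjusted p by edgeR 0.0370), a call lost without 10 of the 12 libraries in turn (up to 0.130 without nontargeting male replicate 3). Of 17 reactive genes 1 was called higher and 2 lower. Clu stood at 41.8, 35.6 and 31.1 CPM in males and 23.1, 67.6 and 40.2 in females, against 77.6, 75.9 and 93.8 and 77.4, 106 and 77.4. The groups did not overlap in either sex, as for 8.73% of genes lower in both. The calls of these 3 as means were kept without any 1 library. In the single sexes Clu was called in both, though in females not without Chd8 female replicate 1 (adjusted p by edgeR 0.130) or with only the 6 libraries compared (0.244). Atp1b2 was called in both sexes, but in males its call was lost without any 1 of the 6 libraries (0.0517 to 0.251) and in females without nontargeting female replicate 2 or Chd8 female replicate 1 (up to 0.187). Ndrg2 was called in females, and lost there without any 1 library other than nontargeting female replicate 2 (up to 0.208). With Kdm6b, Atp1b2 was called lower as a mean (-0.54 ± 0.13, adjusted p by edgeR 0.0317), but not without the 3 libraries that go against a label (0.0603), nor without any 1 of 9 of the 12 libraries compared (up to 0.128).

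With Med13l, 2 further astrocyte genes were called higher and 2 lower of 29, 1 radial glia gene higher and 4 lower of 20, and 1 reactive gene higher of 17. Over all genes 24.1% were called in either direction, so these counts are near or below the share of all genes. Prdx6, a peroxiredoxin, rose to 1.74-fold (log2 change 0.80 ± 0.12, adjusted p by edgeR 1.79e-06), from 45.4 to 53.0 CPM in male controls to 71.4 to 90.7. Fkbp5, a cochaperone of the glucocorticoid receptor, rose to 1.43-fold (0.52 ± 0.08). Ttyh1, a membrane protein of radial glia, fell to 0.681-fold (-0.55 ± 0.09). Nfia, a nuclear factor I protein that starts the astrocyte programme, fell to 0.484-fold (-1.05 ± 0.20, adjusted p by edgeR 8.08e-05), from 14.9, 18.9 and 20.5 CPM to 8.65, 6.67 and 9.30 in males and from 18.4, 26.8 and 16.3 to 6.37, 14.8 and 10.7 in females. Each of these 4 was called as a mean without any 1 library, and in each sex with all libraries. The 4 female calls were lost with only the 6 libraries compared (adjusted p by edgeR 0.177 to 0.310). Nfia in females was also lost with each sex fitted separately (0.0865) and without Med13l female replicate 1 (0.272), nontargeting female replicate 2 (0.211) or Med13l female replicate 3 (0.0710), and Ttyh1 in females without Med13l female replicate 1 (0.133). In males Nfia was lost without Med13l male replicate 2 (0.0565) and Prdx6 without Med13l male replicate 3 (0.0549). Tbr1 and Dnmt3a gave no called gene in these 3 lists by edgeR, where of the 29 astrocyte, 20 radial glia and 17 reactive genes 2, 2 and 2 had an unadjusted p under 0.05 with Tbr1 and 3, 3 and 0 with Dnmt3a. Lcn2, named after its values were seen, was the 1 reactive gene called with Kmt2c, Mbd5 and Ash1l as means of both sexes, higher in each. Over all genes 0.694%, 0.663% and 6.16% were called in these comparisons. The Lcn2 calls were not assessed with libraries left out.

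None of the 10 markers was called with the nontargeting hairpin against no virus in either sex by edgeR or DESeq2. None reached an unadjusted p of 0.05, and 0% of all genes were called by edgeR. Mean S100b in females was 2.21 ± 0.884 CPM (SD, n = 3) without virus and 1.20 ± 0.393 with the nontargeting hairpin. Gfap stood at 7.09, 7.13 and 6.49 CPM in uninfected males and 18.1, 4.28 and 8.30 in uninfected females. The largest SE was that of Fabp7, with a log2 difference of -0.34 ± 0.74 in females. With the uninfected libraries as controls, 9 marker changes were called in place of 7, with Aqp4 with Mbd5 and S100b with Kmt2c added.

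No effect of a target on a marker differed between the sexes by a test of the difference in edgeR or DESeq2, and none reached an unadjusted p of 0.05. Of all genes 0.0186% were called with Setd5 and 0% with each other target. Between males and females, over the mean of the 11 conditions, Fabp7 was 0.592-fold in males (log2 difference -0.76 ± 0.22, adjusted p by edgeR 0.0101) and S100b 0.606-fold (-0.72 ± 0.22, 0.0115), 2 of 10 markers where 25.5% of genes were called in either direction and 13.2% lower in males. Without the 3 libraries that go against a label these were -0.70 and -0.66, both called. Neither was called among nontargeting or uninfected libraries alone, where 0.0434% of genes were called in each. The female medians of Fabp7 by number, 427, 85.3 and 226 CPM, lay on both sides of the male ones at 136, 147 and 141 CPM. With 3 replicate numbers in each sex, sex and replicate set cannot be told apart for these 2 genes.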

How the data were processed

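Polyadenylated RNA was sequenced in 66 libraries with a stranded kit, per the labels' protocols, and the submitters' processing notes name STAR, featureCounts and the mm10 build, without versions. The strand setting of the counting is not given in the sources used here. The deposited table holds raw counts per gene, made by the authors. Of its 48716 rows, 18483 name no symbol (0.690% to 1.41% of counts) and were left out, 149 repeated symbols were summed, and 6 library columns that match no sample were not used. Columns named Luc were taken as the nontargeting hairpin.

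Counts were tested with edgeR 4.0.16 (R 4.3.3), a robust quasi-likelihood F test over all 66 libraries with 1 mean per group and TMM scaling (factors 0.874 to 1.06), on 16145 genes kept by filterByExpr. P-values were adjusted by Benjamini-Hochberg within each comparison, with a threshold of 0.05. The script was tested on simulated data. Same-numbered libraries were taken as paired where each of the 3 correlations of their deviations from the group means exceeded 0.1. That held for all comparisons except Ash1l male, Kdm6b in both sexes and Med13l male. In males the correlations were as low as 0.104 for Dnmt3a and 0.121 for Kmt2c. The block fitted an effect of the number within each sex over all 66 libraries, including those not taken as paired. DESeq2 1.42.0, other scaling, filters, controls and subsets of libraries were tried as alternatives.

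The 10 markers and all lists were chosen with earlier results of these data known. All 10 markers are named. From each other glial list the genes named are up to 5 of those called in most of the 18 single-sex comparisons, and by likeness the 10 genes with the highest and the 5 with the lowest r. 1 of these genes is not reported here.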

Additional observations from a re-analysis of the deposited data

Results flagged for a closer look

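S100b with Tbr1 moved in opposite directions in the sexes: by log2 CPM, each of the 3 male Tbr1 libraries lay above the mean log2 CPM of the male nontargeting libraries and each of the 3 female ones below that of the females. On the linear scale this does not hold, since the lowest male Tbr1 library, at 0.784 CPM, lay below the male nontargeting mean of 0.807 CPM. The mean change was 0.54 on the log2 scale in males and -0.20 in females, a difference of 0.74. The fitted difference between the sexes was 0.74 ± 0.98 SE with an adjusted p by edgeR of 0.99998, and S100b rests on few counts.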

How the results depend on the processing

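The number of marker changes called in males, 1 of 90, was 12 with the replicate block, 5 with each sex fitted separately and 10 with only the 6 libraries compared. In females, also 1 of 90, it was 13 with the replicate block, 2 with DESeq2, 3 with no virus as control, and 0 with each sex fitted separately or only the 6 libraries. As the mean of both sexes, 7 became 21 with the replicate block. With 1 library left out at a time these counts ran from 0 to 1 in males, 0 to 1 in females and 3 to 9 for the mean, with 3 without nontargeting female replicate 2 and 4 without nontargeting male replicate 3. The number of markers that varied with the replicate number ran from 6 to 7 in males and stayed at 10 in females, that between the sexes stayed at 2, and those for virus and for a sex difference in effect stayed at 0. No called value changed sign. DESeq2 and no virus as control each gave 9 calls for the mean, by adding Aqp4 with Mbd5 and S100b with Kmt2c. The block counts include Kdm6b, Ash1l and Med13l comparisons whose libraries the numbers do not pair. Without the filter on low counts the mean count was 5, without the Med13l calls of Aqp4 (adjusted p by edgeR 0.0658) and Gja1 (0.0588). Odd values made up 26.7% of counts from 1 to 20 and 49.1% of those of at least 1000, and halving the counts changed none of these counts of markers. S100b, with as few as 2 counts in a library, is the marker most limited by depth.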
